A study of Mus musculus with 20 samples.

Results

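Livers of 5 wild-type mice fed a Western diet were compared with livers of 5 mice that lacked both liver X receptors (LXR) and ate normal chow. These are 10 of the 20 arrays of the series, and they were taken by their labels alone. All mice were male, 28 weeks old and on a mixed Sv129/C57Bl6J background, and each diet was given for 7 weeks. The Western diet was TD.88051, a cocoa butter diet mixed with mouse chow, and the normal diet was a Teklad chow. The labels used here give no cholesterol or bile acid content of either diet, no hour of killing, and no statement on whether wild-type and knockout mice were littermates. The knockout mice had lost LXR alpha (Nr1h3) and LXR beta (Nr1h2), and the labels name no promoter, Cre line or tissue for that loss. The other 2 groups of 5 mice served as background: wild-type mice on normal diet, from which the difference can be taken in 2 steps, and knockout mice on Western diet, which entered the filter on dim genes and the common estimate of spread.

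LXR alpha and LXR beta are nuclear receptors that bind oxidised forms of cholesterol. In liver they are known to raise genes for sterol export into bile, for conversion of cholesterol to bile acids in mice, and for fatty acid synthesis through Srebf1. Cholesterol synthesis is set mainly by another sensor: when membranes hold enough sterol, SREBP2, the product of Srebf2, stays in the endoplasmic reticulum and its target genes are not raised. The comparison asks which genes lay at opposite levels in a liver with LXR on Western diet and in a liver without LXR on chow.

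Each value below is a log2 level, in which 0 is the 75th percentile of the signal of that array. A difference is the mean of the Western-fed wild-type mice minus the mean of the knockout mice on normal diet, on the log2 scale, followed by its SE, with n = 5 and 5 except where fewer values are stated. "Higher" and "lower" refer to the Western-fed wild-type mice and mean an adjusted p under 0.05 in limma's test over all genes, with Benjamini-Hochberg adjustment. Where no condition is added, "knockout mice" are those on normal diet. The genotype step is knockout minus wild-type on normal diet, the diet step is Western minus normal diet in wild-type mice, and the comparison equals the diet step minus the genotype step. "Rose" and "fell" are used for calls in these steps. "LXR loss" names the genotype step. Alleles of the mixed background that differ between the groups cannot be told apart from the deletions in it. The comparison and its steps share arrays, so their values stand side by side and are not separate evidence.

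The 75th percentile lay at 261.1 to 330.8 intensity units on the arrays of Western-fed wild-type mice and at 223.5 to 323.3 on those of knockout mice, and 55.95% to 63.97% and 58.91% to 63.63% of probes were well above background. Across genes, arrays of a group correlated at 0.9504 to 0.9893. The file headers were used to group arrays by scan time, and arrays that share 1 scan time are called a slide here. By this grouping the 10 arrays lay on 6 slides, of which 4 held both groups. Knockout mouse 2 stood apart in several Kupffer cell genes and in Cyp4a14, and knockout mice 1, 2 and 3 stood apart from mice 4 and 5 in clock genes, and calls lost with only mice 4 and 5 of that group are given beside the results. Hepatocyte markers were present at a median log2 level of 5.63 to 6.13 in the Western-fed wild-type mice and 5.87 to 6.41 in the knockout mice, and of 19 tested only Foxa2 was higher and Asgr2 lower, the latter at -0.34 and lost without any 1 of 7 arrays (wild-type mice 2, 3 and 5 on Western diet and knockout mice 2, 3, 4 and 5). Both were also lost with normexp background correction or with only knockout mice 4 and 5.

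The targeted genes checked the labels. Nr1h3 lay at 4.33, 3.82, 4.2, 4.68 and 4.42 in the Western-fed wild-type mice and at -4.97, -3.82, -4.38, -4.28 and -5.16 in the knockout mice, a difference of 8.81 ± 0.29 (adjusted p = 4.88e-13). Nr1h2 lay at 0.78, 0.63, 0.6, 0.82 and 0.63 in the Western-fed wild-type mice and at -5.75, -4.41, -4.13, -3.83 and -4.57 in the knockout mice, a difference of 5.23 ± 0.31 (adjusted p = 1.37e-09). The groups of each gene lay far apart, and both probes were still well above background on 4 of 5 knockout arrays, so that a low signal remained. The Western diet itself left neither receptor called, with diet steps of -0.24 and -0.16.

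Of 17543 genes tested, 4457 differed (25.4%), of which 2182 were higher (12.4%) and 2275 lower (13%). The lower genes moved further: 1247 lower and 444 higher genes differed by at least 2-fold. For 2884 genes (16.4%) the 2 groups did not overlap. Of 4409 called genes with values on all 4 shared slides, 3906 (88.6%) differed in the same direction on every one of them. The median of all genes was 0.01, and 0.17 when each array was scaled to its median, which gave 2132 higher and 1237 lower genes, so that 63.3% of calls and not 49% were higher. With normexp background correction and an offset of 50, which compresses dim signals, 296 genes were higher and 399 lower, and with only knockout mice 4 and 5 the counts were 746 and 922. The other settings named below are a fit of only the 2 groups compared, the shared slides alone, slide as a block, and the log2 values that the authors deposited. In the genotype step 3460 of 17547 genes changed (19.7%), and in the diet step 1047 of 17543 (5.97%). Of these, 1988 rose and 1472 fell in the genotype step, and 571 rose and 476 fell in the diet step. The list counts by step below stand beside these. More genes thus changed in the genotype step than in the diet step, while 1013 higher and 701 lower genes of the comparison passed in neither step alone.

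Genes set oppositely by the steps numbered 107 of 17552 (0.61%). Of these, 42 fell with LXR loss and rose on Western diet, and 65 rose with LXR loss and fell on Western diet; by construction, all 42 were higher and all 65 lower in the comparison. The first set held Srebf1, Hsd17b11, Osgin1, Adam11, Wnk4, Arhgef16 and Armcx3. The second set held 9 genes of cholesterol synthesis with Srebf2 and Stard4, the estrogen sulfotransferase Sult1e1, the drug sensor Nr1i3, the P450 gene Cyp2c37, the asparagine synthetase Asns, the renin genes Ren1 and Ren2 and the imprinted RNA Meg3. These counts depend on the wild-type mice on normal diet, which both steps share: without mouse 2, 4 or 5 of that group the first set numbered 25, 25 and 23.

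**Figure D1:**
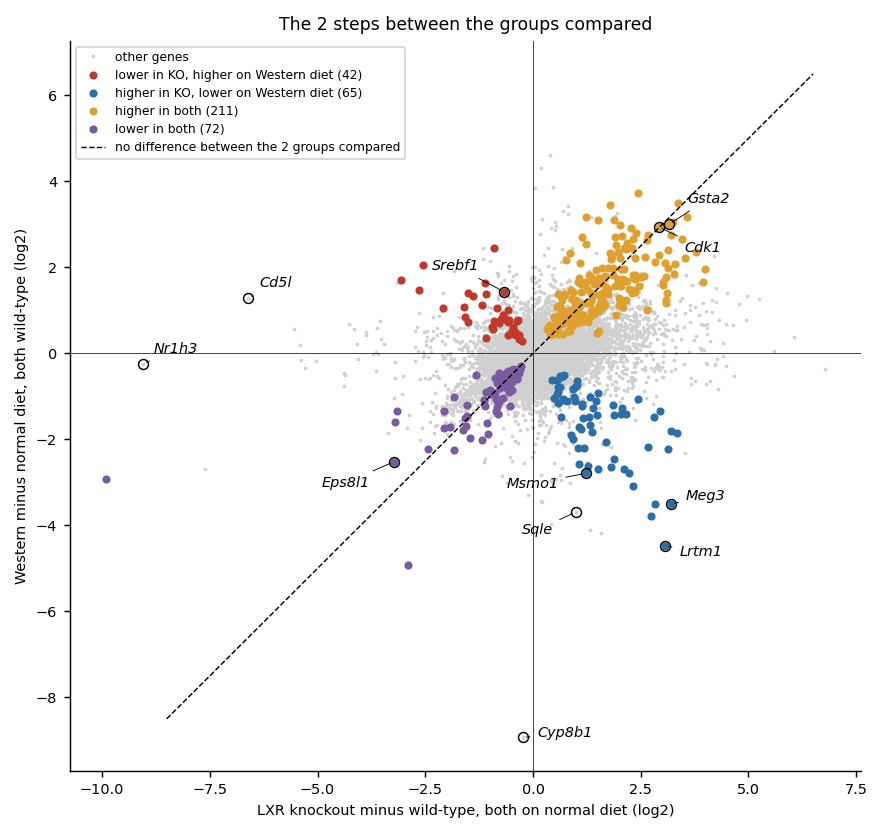
Each point is a gene, placed by its genotype step (x axis, log2) and its diet step (y axis, log2), with the 4 sets of genes called in both steps in colour and the dashed line where the compared groups are equal. Genes set oppositely lie in the upper left (42) and lower right (65) corners, far from the dashed line, while 211 genes that rose and 72 that fell in both steps lie along it.

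Among genes lowered by LXR loss and raised by the diet, Adam11, which encodes a membrane protein of the disintegrin family, lay at 2.31, 1.81, 1.94, 2.44 and 1.9 in the Western-fed wild-type mice and at -2.54, -1.42, -2.42, -3.31 and -3.02 in the knockout mice. In wild-type mice on normal diet it lay between, at 0.29, 0.96, -0.76, -0.54 and 0.15, and the groups compared did not overlap. The genotype step was -2.56 ± 0.33, the diet step 2.06 ± 0.33 and the difference 4.62 ± 0.33 (adjusted p = 1.42e-08). Osgin1, an oxidative stress-induced growth inhibitor, lay at 6.53, 7.39, 6.97, 6.47 and 6.67 in the Western-fed wild-type mice and at 4.58, 3.46, 4.77, 4.23 and 4.61 in the knockout mice, again without overlap, for a difference of 2.48 ± 0.34 (adjusted p = 4.20e-05). Hsd17b11, a dehydrogenase found on lipid droplets, varied little within groups, at 6.37 to 6.55 and 5.06 to 5.51, and differed by 1.14 ± 0.1 (adjusted p = 1.37e-07). Of the further members, the kinase gene Wnk4 differed by 3.35, the proton pump subunit Atp4a by 3.15, the exchange factor Arhgef16 by 2.91, the cadherin Cdh15 by 2.73, Whrn by 2.69 and Armcx3 by 2.43. The calls of Atp4a, Cdh15 and Whrn, which are dim here, were lost with normexp correction. AK031453 and AK044196, transcripts without a symbol here, were below background in all knockout mice and at least 7.04-fold and 4.1-fold higher. Those of AK031453 and AK044196 were lost as well.

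Among genes raised by LXR loss and lowered by the diet, Lrtm1 lay at -4.89, -3.83, -3.87, -4.2 and -2.78 in the Western-fed wild-type mice and at 3.34, 3.3, 3.64, 3.83 and 3.96 in the knockout mice. Wild-type mice on normal diet spread from -1.02 to 2.16, between the groups, and the difference was -7.53 ± 0.59 (adjusted p = 6.90e-08). Sult1e1, which sulfates estrogens, lay at -2.26, -1.93, -1.84, -1.16 and -0.45 in the Western-fed wild-type mice and at 4.14, 2.45, 3.57, 3.27 and 2.97 in the knockout mice. All 5 Western-fed wild-type mice lay below all 5 knockout mice, a difference of -4.8 ± 0.68 (adjusted p = 5.50e-05), with a genotype step of 2.11 ± 0.68 and a diet step of -2.69 ± 0.68. Ren1 and Ren2, near-identical renin genes whose probes may not separate them, differed by -6.52 and -6.33. Pls1, which encodes a plastin, was not well above background in any Western-fed wild-type mouse and was at least 25.1-fold lower, taking the signal floor of the array for the dim group. By the same bound the centromere gene Cenpm was at least 9.48-fold and the transcription factor gene Tox at least 8.04-fold lower. Raet1a, a ligand of an NK cell receptor, differed by -4.34 ± 0.46 (adjusted p = 1.81e-06), and the unnamed transcript AK033099 by -5.4 ± 0.46. The calls of Cenpm and Tox were lost with normexp correction.

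LXR targets were higher as a list: of 22 members tested, 11 were higher and 1 lower, with a median difference of 0.62 against 0.01 over all genes. The members that moved did so by different steps. In the genotype step 1 rose and 4 fell, in the diet step 7 rose and 1 fell, and Srebf1 was the 1 member set oppositely by both. The median level of the list was 3.56 to 4.08 in Western-fed wild-type mice and 2.29 to 3.13 in knockout mice, without overlap. With normexp correction 5 members were higher and with only knockout mice 4 and 5 there were 7.

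**Figure D2:**
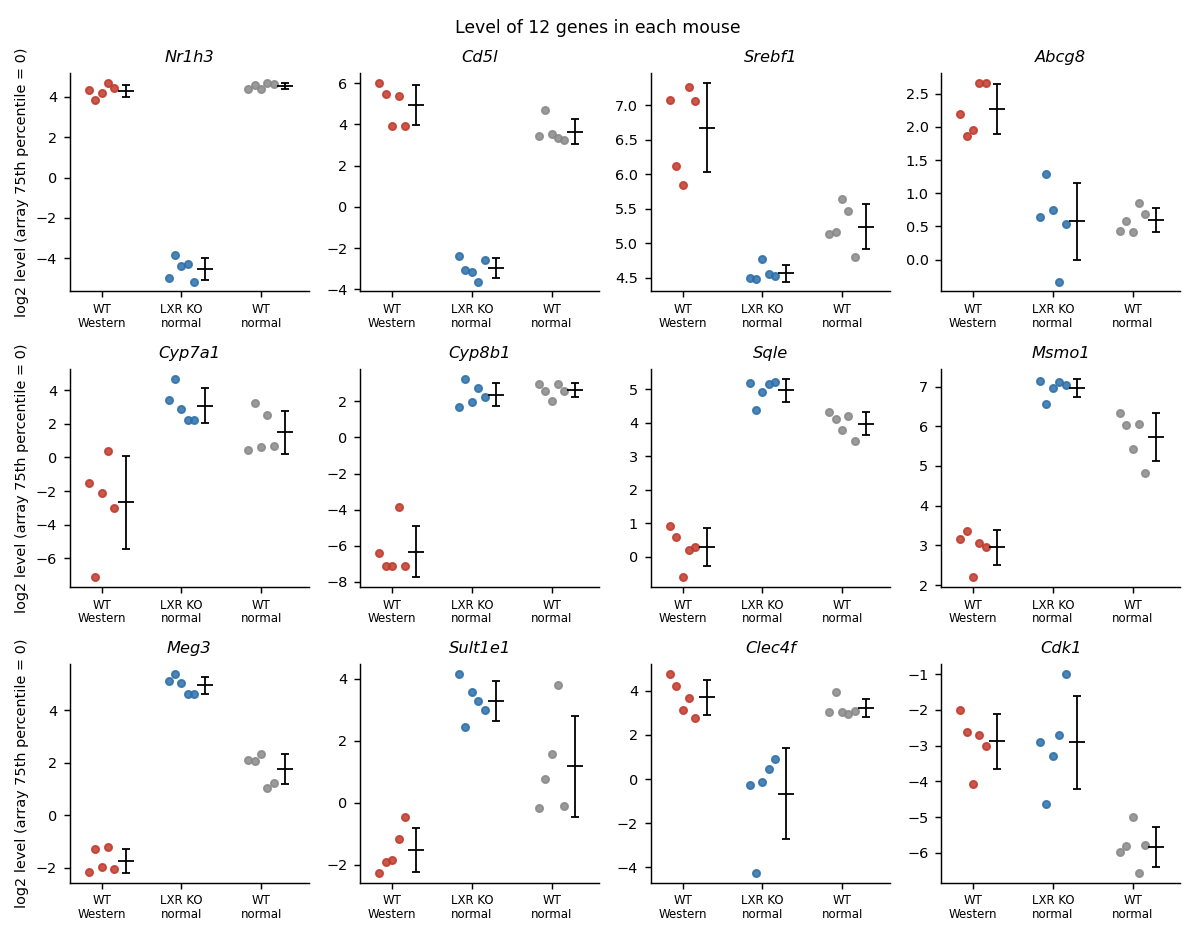
Log2 level (y axis, 0 is the 75th percentile of the array) of 12 genes in every mouse of 3 groups: wild-type on Western diet (WT Western), LXR knockout on normal diet (LXR KO normal) and wild-type on normal diet (WT normal). Bars show mean ± SD of 5 mice, and the 2 groups compared do not overlap except for Cdk1.

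Cd5l, a secreted macrophage protein and a classic LXR target in macrophages, had the largest difference of the list. In whole liver, fewer cells of a type and less RNA per cell cannot be told apart, which holds for Cd5l and for every cell type marker given here. It lay at 6.0, 5.49, 3.91, 5.4 and 3.9 in the Western-fed wild-type mice and at -2.36, -3.05, -3.16, -3.62 and -2.58 in the knockout mice. Every Western-fed wild-type mouse lay above every knockout mouse, a difference of 7.89 ± 0.38 (adjusted p = 7.89e-11), most of it from the genotype step of -6.61 ± 0.38. Srebf1, which encodes the regulator of fatty acid synthesis SREBP1, lay at 7.08, 6.12, 5.85, 7.27 and 7.06 in the Western-fed wild-type mice and at 4.49, 4.48, 4.77, 4.56 and 4.52 in the knockout mice. The groups did not overlap, the genotype step was -0.68 ± 0.23, the diet step 1.44 ± 0.23 and the difference 2.11 ± 0.23 (adjusted p = 3.31e-06). Scd1, the desaturase that makes oleate, lay at 8.06, 7.87, 7.77, 8.02 and 8.03 in the Western-fed wild-type mice and at 4.53, 5.75, 3.82, 3.12 and 4.12 in the knockout mice and differed by 3.68 ± 0.44 (adjusted p = 8.58e-06), with its probe saturated on 4 of 5 Western-fed arrays, which understates the level there.

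Of the sterol exporters, Abcg8, Abcg5 and Abca1 were higher and rose in the diet step, and none of them was called in the genotype step. Abcg8, 1 of 2 subunits of the pump that moves sterols into bile, lay at 2.2, 1.87, 1.96, 2.66 and 2.66 in the Western-fed wild-type mice and at 0.64, 1.29, 0.75, -0.33 and 0.53 in the knockout mice, without overlap, with a genotype step of -0.02 ± 0.29 and a diet step of 1.67 ± 0.29. The difference was 1.69 ± 0.29 (adjusted p = 3.85e-04). Its partner Abcg5 had 4 values per group and differed by 1.38 ± 0.34 (adjusted p = 0.00955), a call lost with slide as a block. Abca1, which loads cholesterol onto apolipoprotein A-I, lay at 4.08, 3.56, 4.01, 3.95 and 4.05 in the Western-fed wild-type mice and at 3.01, 3.18, 3.02, 3.44 and 3.55 in the knockout mice. The lowest Western-fed value, 3.56, was just above the highest knockout value, 3.55, and the difference was 0.69 ± 0.13 (adjusted p = 7.90e-04). Abcg1, a pump that hands cholesterol to high-density lipoprotein, was not called, at 0.44 ± 0.29, since it rose by 1.34 in the genotype step and by 1.78 in the diet step.

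Lpl, the lipase that frees fatty acids from lipoproteins, lay at 4.58, 4.65, 4.56, 4.1 and 4.35 in the Western-fed wild-type mice and at 0.95, -0.47, 0.43, -0.95 and 1.26 in the knockout mice. It was near the knockout level in wild-type mice on normal diet (-0.50 to 0.21), so the difference of 4.21 ± 0.32 (adjusted p = 4.65e-08) lay in the diet step of 4.61 ± 0.32. Rnf145, a ubiquitin ligase of sterol control, was higher by 0.76 ± 0.15 and Mylip, another ubiquitin ligase, by 0.9 ± 0.2. Pnpla3 and Mlxipl, both linked to fatty acid synthesis, were higher by 2.55 ± 0.7 and 0.57 ± 0.14. Cyp7a1, the rate-limiting enzyme of bile acid synthesis and a known LXR target in mice, was the 1 member lower. Pltp, Apoc1, Apoc2, Smpdl3a and Arl4c lay between -0.23 (Arl4c) and 0.38 (Apoc2) and were not called. Apoe, saturated on all 10 arrays, and Lpcat3, which remodels phospholipids, were not called, at -0.12 and -0.02. The calls of Abca1, Mlxipl, Mylip, Rnf145 and Pnpla3 were lost with normexp correction, as was that of Abcg5. Those of Abca1, Mlxipl, Mylip and Pnpla3 were also lost with only knockout mice 4 and 5.

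Fatty acid synthesis genes did not move as 1 group. Of 25 members tested, 7 were higher and 6 lower, with a median of -0.08. In the genotype step 12 fell and 1 rose, in the diet step 12 fell and 2 rose, and 6 fell in both, which share the wild-type mice on normal diet. Acacb, the acetyl-CoA carboxylase that controls fatty acid oxidation, lay at 3.24, 3.1, 2.13, 2.25 and 2.69 in the Western-fed wild-type mice and at 0.98, 1.94, 0.87, -0.15 and 0.6 in the knockout mice, against 3.63, 3.75, 4.01, 4.38 and 4.28 in wild-type mice on normal diet. It was lowest in the knockout mice and in between in the Western-fed mice, and the difference was 1.83 ± 0.3 (adjusted p = 2.39e-04). Me1, the malic enzyme, was higher by 1.8 ± 0.48, also from a genotype step of -2.31. Scd2, a desaturase low in adult liver, went the other way, at 0.06, -0.4, -0.63, -0.29 and 0.63 in the Western-fed wild-type mice and at 1.7, 2.24, 1.97, 0.94 and 2.08 in the knockout mice. It rose in both steps, more with LXR loss (3.08) than on the diet (1.17), and was lower in the comparison, at -1.91 ± 0.27 (adjusted p = 4.81e-05). The call of Me1 was lost with normexp correction. In the list, 3 were higher and 3 lower with that correction, and 4 and 3 with only knockout mice 4 and 5.

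The other higher members were Scd1, Pnpla3, Mlxipl and Srebf1, given above, and the fatty acid carrier Fabp5, which was below background in all knockout mice and at least 1.21-fold higher, a call lost in 24 of 37 alternatives. Among the lower members, Acss2, which makes acetyl-CoA from acetate, fell only in the diet step and differed by -1.73 ± 0.26 (adjusted p = 1.13e-04). Aacs, which makes acetoacetyl-CoA, differed by -1.83 ± 0.33 (adjusted p = 5.37e-04). Thrsp differed by -1.95 ± 0.58, and that call was lost without wild-type mouse 3 on Western diet, which lay at 2.46 against 3.88 to 4.27 in the other 4. Fads1 and Elovl5, which build long polyunsaturated fatty acids, differed by -0.78 and -0.6, and Elovl5 lost its call in 18 of 38 alternatives. Fads2, Elovl6 and Acly were not called, at -0.34, -0.35 and -0.48, each with a fall in the diet step (-1.05, -0.99 and -0.96). Pklr, the liver pyruvate kinase, fell in the genotype step (-1.03) and was not called in the diet step (-0.8) or in the comparison, at 0.23 ± 0.29, whereas Acsl5 fell in both steps (-0.84 and -1.08, difference -0.24 ± 0.17). Acaca and Elovl2 were at -0.07 and 0.0. Fasn, the fatty acid synthase, had only 3 and 2 usable values and was not called (0.67 ± 0.53). The calls of Thrsp and Fads1 were lost with normexp correction and with only knockout mice 4 and 5, that of Thrsp also on the shared slides alone and that of Fads1 with median scaling.

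Cholesterol synthesis was where the 2 steps added up. Of 11 genes of the mevalonate arm, which makes squalene, 9 were lower and none higher, with a median of -3.14, and all 11 genes of the post-squalene arm, which turns squalene into cholesterol, were lower, with a median of -2.19. Of these 22 genes, 10 rose in the genotype step, 19 fell in the diet step and 9 were called in both. The median level of the mevalonate arm was 0.74 to 1.47 in Western-fed wild-type mice and 4.17 to 5.14 in knockout mice, and that of the post-squalene arm was 1.81 to 3.35 and 4.72 to 5.22. Leaving out any 1 array kept both counts, and with only knockout mice 4 and 5 they were 9 and 9.

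Sqle, the squalene epoxidase, lay at 0.92, 0.6, -0.6, 0.21 and 0.3 in the Western-fed wild-type mice and at 5.18, 4.39, 4.92, 5.15 and 5.21 in the knockout mice. The knockout values all lay above 4 and the Western-fed values all below 1, and the difference was -4.68 ± 0.36 (adjusted p = 4.65e-08). Its genotype step of 0.99 ± 0.36 missed the threshold (adjusted p = 0.06 in limma), and its diet step was -3.69 ± 0.36. Msmo1, a sterol methyl oxidase, lay at 3.15, 3.35, 2.2, 3.07 and 2.97 in the Western-fed wild-type mice and at 7.14, 6.56, 6.97, 7.11 and 7.04 in the knockout mice, with steps of 1.23 ± 0.26 and -2.79 ± 0.26 and a difference of -4.02 ± 0.26 (adjusted p = 4.43e-09).

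Further mevalonate genes are given in pathway order. Hmgcs1 differed by -2.77 (4 Western-fed values), Mvk by -2.77, Pmvk by -2.21, Mvd by -3.14, Idi1 by -3.9, Fdps by -3.67 and Fdft1, the squalene synthase, by -3.24. Pmvk and Fdps had small values in the genotype step (0.28 and 0.21, neither called) and had most of their differences in the diet step. Ggps1, which makes geranylgeranyl diphosphate for protein prenylation and not for sterols, was not called, at 0.24 ± 0.12. Acat2, which makes acetoacetyl-CoA, had 2 usable values per group and was not called (-0.21 ± 0.27). In the post-squalene arm Cyp51 differed by -3.39, Nsdhl by -3.32, Hsd17b7 by -2.92, Lss by -2.66, Dhcr7 by -2.19, Tm7sf2 by -1.7, Sc5d by -1.2, Lbr by -0.61 and Ebp by -0.56. The last pair, Lbr and Ebp, had the smallest differences of the arm, overlapped between groups and lost their calls with normexp correction and with median scaling. With only knockout mice 4 and 5, Sc5d and Ebp were not called, nor was Sc5d with normexp correction or Ebp on the shared slides alone.

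**Figure D3:**
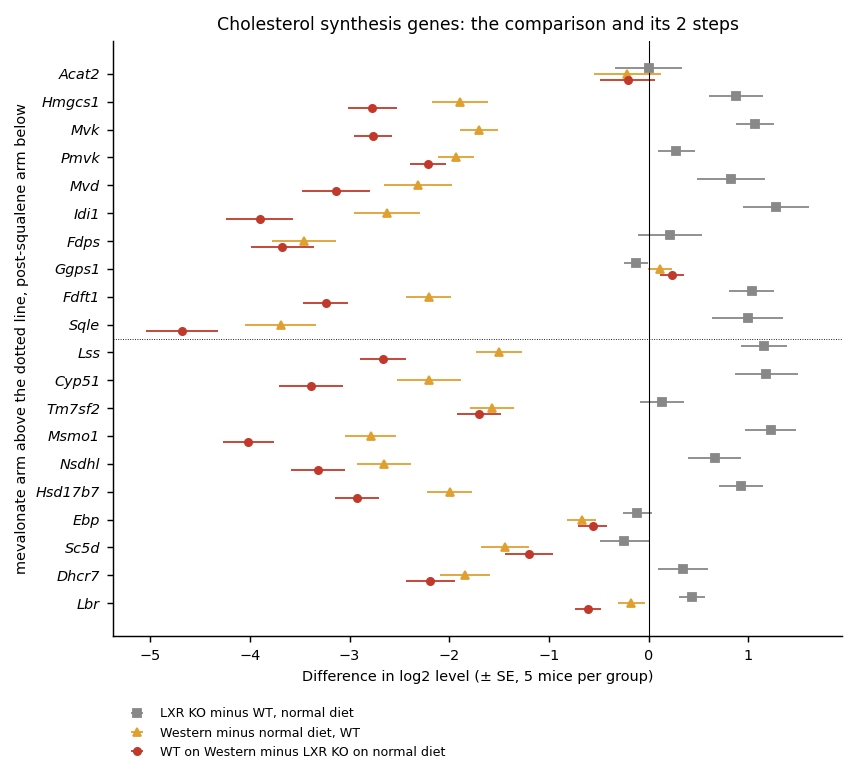
Difference in log2 level (x axis, ± SE, 5 mice per group unless values were missing) of 20 cholesterol synthesis genes in the genotype step (grey squares), the diet step (yellow triangles) and the comparison (red circles). Most squares lie right of 0 and most triangles left of it, and 18 of 20 circles are called lower, down to -4.68 for Sqle.

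Genes of cholesterol uptake and its controls moved in both directions. Of 11 genes tested, 5 were lower and 2 higher, with a median of -0.30. Srebf2 lay at 2.66, 2.54, 2.18, 2.78 and 2.28 in the Western-fed wild-type mice and at 3.97, 3.76, 4.04, 4.1 and 4.1 in the knockout mice, without overlap, for a difference of -1.5 ± 0.14 (adjusted p = 5.46e-07). Stard4, which carries cholesterol within the cell, differed by -2.12 ± 0.22 and Insig1, which holds SREBP2 in place, by -1.58 ± 0.39. Higher were Soat2, which esterifies cholesterol, by 0.88 ± 0.17, and Insig2, by 0.78 ± 0.26. The call of Insig2 was lost in 12 of 38 alternatives, among them those without wild-type mouse 2 or 3 on Western diet or without knockout mouse 1, 2 or 3. With only knockout mice 4 and 5, 3 members were lower and 1 higher, and Insig1 and Insig2 were no longer called. Scap, which escorts SREBP2, and the proteases Mbtps1 and Mbtps2, which release it, were not called, at -0.12, 0.13 and 0.03.

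Promoters of these genes show what the coordinated members share in sequence. Below are the 250 bases before the RefSeq start site of the called cholesterol synthesis genes and LXR targets with the largest differences among those in the RefSeq table, on build GRCm38.p6, 5′ to 3′ on the strand of the gene. Capitals mark any match, on either strand, to CCAAT (bound by NF-Y), GGGCGG (a GC box), CACGTG, TCACNCCAC (a sterol regulatory element), AGGTCA (the nuclear receptor half-site), or AGGTCA pairs 1 base (DR1) or 4 bases (DR4) apart, each pair also holding the half-site.
Msmo1, chr8:64733579-64733828, minus strand: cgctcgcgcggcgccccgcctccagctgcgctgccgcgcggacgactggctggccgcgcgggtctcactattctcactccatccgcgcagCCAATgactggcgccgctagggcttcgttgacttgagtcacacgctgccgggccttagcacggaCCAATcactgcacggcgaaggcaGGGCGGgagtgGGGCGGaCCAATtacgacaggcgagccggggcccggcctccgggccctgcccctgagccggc
Idi1, chr13:8885356-8885605, plus strand: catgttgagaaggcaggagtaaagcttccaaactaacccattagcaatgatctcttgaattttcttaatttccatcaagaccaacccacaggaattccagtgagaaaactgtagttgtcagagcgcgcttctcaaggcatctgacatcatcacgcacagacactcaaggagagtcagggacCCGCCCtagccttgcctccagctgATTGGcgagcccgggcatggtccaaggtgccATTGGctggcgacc
Cyp51, chr5:4104698-4104947, minus strand: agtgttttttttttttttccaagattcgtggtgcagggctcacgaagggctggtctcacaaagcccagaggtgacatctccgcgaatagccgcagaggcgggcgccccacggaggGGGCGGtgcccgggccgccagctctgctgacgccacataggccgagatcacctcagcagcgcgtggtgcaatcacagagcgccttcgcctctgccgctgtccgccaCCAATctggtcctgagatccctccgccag
Cd5l, chr3:87357631-87357880, plus strand: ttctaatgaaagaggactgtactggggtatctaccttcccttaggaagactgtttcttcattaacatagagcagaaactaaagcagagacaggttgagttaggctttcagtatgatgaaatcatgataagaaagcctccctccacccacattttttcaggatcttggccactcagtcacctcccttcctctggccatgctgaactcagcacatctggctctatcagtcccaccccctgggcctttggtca
Pnpla3, chr15:84167566-84167815, plus strand: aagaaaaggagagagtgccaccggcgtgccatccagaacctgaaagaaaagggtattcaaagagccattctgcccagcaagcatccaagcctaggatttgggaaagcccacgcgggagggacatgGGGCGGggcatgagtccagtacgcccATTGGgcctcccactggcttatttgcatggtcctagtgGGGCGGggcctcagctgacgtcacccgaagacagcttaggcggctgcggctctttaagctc
Srebf1, chr11:60222582-60222831, minus strand, the first of 3 starts listed: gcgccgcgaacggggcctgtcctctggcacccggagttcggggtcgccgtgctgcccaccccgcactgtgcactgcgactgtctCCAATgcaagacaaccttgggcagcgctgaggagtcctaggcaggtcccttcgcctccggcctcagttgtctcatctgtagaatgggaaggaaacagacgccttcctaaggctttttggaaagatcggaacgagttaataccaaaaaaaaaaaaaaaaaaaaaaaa

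The 3 cholesterol synthesis promoters each held both CCAAT and GGGCGG. Msmo1 had CCAAT at -160 to -156, -96 to -92 and -55 to -51 from the start and GGGCGG at -73 to -68 and -62 to -57. Idi1 had both on the opposite strand, CCAAT at -45 to -41 and -14 to -10 and GGGCGG at -69 to -64. Cyp51 had CCAAT at -29 to -25 and GGGCGG at -135 to -130. No match to any of the motifs was found in the window of Cd5l, and those of Pnpla3 and Srebf1 held CCAAT, with GGGCGG in Pnpla3. Of 22 cholesterol synthesis genes, 17 were in the table, and CCAAT occurred in 16 of them (94.1%) and GGGCGG in 15 (88.2%). Among 11455 tested genes in the table these shares were 39.7% and 58.9%, and over all 32851 windows 33.8% and 32.7%. Of the 65 genes raised by LXR loss and lowered by the diet, 39 were in the table and 24 held CCAAT (61.5%), and of the 42 set the other way, 10 of 28 did (35.7%). The 65 include 5 mevalonate and 4 post-squalene genes, so their share is not separate from that of the cholesterol synthesis genes. Among the cholesterol synthesis genes TCACNCCAC was in 1 of 17 (5.88%) against 1.27% of the tested genes and 1.05% of windows, and CACGTG in 3 of 17 (17.6%) against 9.36% and 6.02%. Of 22 LXR targets, 15 were in the table, of which 9 held CCAAT (60%), 9 GGGCGG (60%) and 1 the half-site (6.67%, against 14% of tested genes and 14% of windows), while DR4 (0.0152% of windows) and DR1 (0.0335%) were in none. These are letter matches in a short window and say nothing of binding.

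Bile acids are made from cholesterol in hepatocytes. Cyp8b1, the enzyme that makes cholic acid, lay at -6.41, -7.12, -7.09, -3.85 and -7.12 in the Western-fed wild-type mice and at 1.69, 3.25, 1.98, 2.71 and 2.23 in the knockout mice. In Western-fed mice it was well above background on 1 of 5 arrays, mouse 4, while all 5 knockout mice lay in the range of wild-type mice on normal diet (2.01 to 2.96) or slightly beyond it, at 1.69 to 3.25. The difference was -8.69 ± 0.76 (adjusted p = 1.98e-07), and it lay in the diet step (-8.93) with almost none in the genotype step (-0.24). It was -7.32 when each value under the lowest signal called above background on its array was raised to that signal. Where this substitution is used again, dim values are those under that signal. Cyp7a1 lay at -1.51, -7.12, -2.1, 0.4 and -3.03 in the Western-fed wild-type mice and at 3.41, 4.69, 2.88, 2.22 and 2.25 in the knockout mice, with mouse 2 of the Western-fed group below background. It spread widely within groups and differed by -5.76 ± 1.13 (adjusted p = 0.00108), a call lost with only knockout mice 4 and 5, the 2 with the least Cyp7a1 among knockout mice. Its genotype step of 1.58 ± 1.13 was not called (adjusted p = 0.353 in limma).

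Nr0b2, which encodes SHP, the repressor of bile acid synthesis that rises with bile acids, was higher, at 1.19, 1.55, 1.21, 1.75 and 1.52 in the Western-fed wild-type mice and at -0.18, 0.06, -1.48, 0.81 and -0.41 in the knockout mice, without overlap (1.68 ± 0.32, adjusted p = 8.96e-04). Of 19 synthesis genes in all, 3 were higher and 6 lower. This count and that of the transporters stand beside 12.4% higher and 13% lower over all genes. Cyp2c70, which makes muricholic acids in mice, was higher by 1.48 ± 0.26, from a genotype step of -1.6 (saturated on 4 Western-fed arrays). Akr1d1, a later step of synthesis, was lower, at -1.06 ± 0.21, and Cyp39a1, an oxysterol hydroxylase, was higher by 1.1 ± 0.3. The bile acid receptor Nr1h4 and the activator Nr5a2 were lower, at -0.72 ± 0.19 and -0.86 ± 0.22. Among 11 bile acid transporters, 2 were higher and 4 lower. Slc51b, a subunit of the exporter to blood, lay at 0.73, 1.38, 1.31, 0.68 and 0.43 in the Western-fed wild-type mice and at -2.49, -3.64, -4.15, -3.0 and -2.8 in the knockout mice. Knockout mice resembled wild-type mice on normal diet (-4.12 to -2.23), and the difference was 4.12 ± 0.36 (adjusted p = 2.31e-07). Abcb11, the bile salt export pump, was higher by 1.12 ± 0.13 (4 knockout values), and the exporters Abcc2, Abcc3 and Abcc4 were lower, at -0.82 ± 0.17, -0.75 ± 0.16 and -1.57 ± 0.17, all from the genotype step. None of the lower transporters was called with normexp correction. The calls of Cyp39a1, Nr1h4 and Nr5a2 were lost with normexp correction and with only knockout mice 4 and 5, that of Cyp39a1 also with only the 2 groups fitted and those of Nr1h4 and Nr5a2 with median scaling. Of the synthesis genes 3 were lower with median scaling or normexp correction and 2 with only knockout mice 4 and 5, when 2 transporters were lower and Abcc2 was not called.

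Genes of drug metabolism were lower in part. Of 22 tested in a list of P450 and conjugation genes that also holds Nr1i3, 9 were lower and none higher. The list median was -0.23, or -0.075 with median scaling. Nr1i3, the receptor CAR that controls many of them, lay at 0.41, 0.68, 1.47, 1.38 and 1.26 in the Western-fed wild-type mice and at 2.75, 3.81, 3.2, 3.7 and 3.57 in the knockout mice, with wild-type mice on normal diet between (2.01 to 2.66). It rose by 1.15 in the genotype step and fell by 1.22 in the diet step, for a difference of -2.37 ± 0.22 (adjusted p = 4.12e-07). Cyp2c37 lay at 3.27, 3.44, 0.55, 1.39 and 0.62 in the Western-fed wild-type mice and at 6.08, 6.65, 6.19, 6.78 and 5.74 in the knockout mice, a difference of -4.43 ± 0.59 (adjusted p = 2.65e-05). Cyp2c54 differed by -3.89 ± 0.57, the CAR target Cyp2b10 by -2.7 ± 0.49 and Cyp2a5 by -1.89 ± 0.34. These families hold near-identical copies, so that probes may read more than 1 gene. With normexp correction 6 of the list were lower and Cyp2b10 was not called.

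Genes with higher expression in female than in male mouse liver were lower in the Western-fed wild-type mice, although all mice were male. Of 14 tested, 8 were lower and 2 higher, with a median of -1.41, and 9 rose in the genotype step. The higher pair, Cyp3a44 and Cyp3a16, numbered 1 without wild-type mouse 1 or 2 on Western diet or knockout mouse 1, 2 or 3. Cyp2b9 lay at -1.64, -0.02, -2.92, -1.73 and -2.19 in the Western-fed wild-type mice and at 2.67, 3.53, 2.92, 4.18 and 3.79 in the knockout mice, against -1.70 to -0.27 in wild-type mice on normal diet. Knockout mice thus stood apart from both wild-type groups, and the difference was -5.12 ± 0.53 (adjusted p = 1.53e-06). Its neighbour Cyp2b13 differed by -4.39 ± 0.58, and Abcd2, a peroxisomal transporter, was at least 3.07-fold lower. Cyp2a4 differed by -3.27 ± 0.53, a call lost with slide as a block, and with normexp correction 4 of the list were lower. Of 16 male-biased genes, 3 were higher and 1 lower, with a median of 0.50, against 12.4% higher and 13% lower over all genes. In this list 5 were higher without mouse 1 of the knockouts on Western diet, which is not part of the comparison. Cspg5 was higher by 2.53 ± 0.37 and Cyp2u1 by 1.34 ± 0.26, Susd4 was lower, at -3.39 ± 0.37 with a fall of -2.97 in the diet step, and Hsd3b5 and Elovl3 were not called (1.7 ± 0.64 and 1.58 ± 1.2). No female-biased gene was higher with normexp correction, on the shared slides alone or with only knockout mice 4 and 5, and 5 were lower in the authors' deposited log2 values. Of the male-biased genes 5 were higher with median scaling, in the deposited log2 values or with only the 2 groups fitted. With normexp correction Abcd2 and Cspg5 lost their calls.

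Fat-burning and fat-storing genes differed modestly, and their counts stand beside 12.4% higher and 13% lower over all genes. Of 32 genes of fatty acid oxidation and PPAR alpha, 7 were lower and 2 higher (Acot1 and Crat), and neither of the 2 was called without wild-type mouse 2, 3, 4 or 5 on Western diet or without knockout mouse 1, 3, 4 or 5. With median scaling 3 were lower and with normexp correction none. Acadm and Hadh, enzymes of beta-oxidation, were lower, at -0.95 ± 0.17 and -0.87 ± 0.17 (4 knockout values each), and Cpt1a, the entry step, by -0.84 ± 0.24. Knockout mouse 2 stood apart here, with Cyp4a14 at 7.40 against 0.80 to 1.79 in the other 4 knockout mice, and 4 members were lower without it, as without wild-type mouse 1 on Western diet. Of 24 lipid droplet genes, 5 were lower and 3 higher. Lpin1, which makes diacylglycerol and coactivates PPAR alpha, lay at 0.8, 1.58, 1.31, 1.66 and 1.69 in the Western-fed wild-type mice and at 2.67, 4.09, 4.37, 3.57 and 3.75 in the knockout mice, without overlap (-2.29 ± 0.46, adjusted p = 0.00133). Mogat1 and the lipase Lipe were lower, at -1.64 ± 0.44 and -1.05 ± 0.18, and Abhd5, which activates lipolysis, and the droplet coat gene Plin2 were higher by 0.98 ± 0.17 and 0.83 ± 0.15. Without knockout mouse 4 or 5, 5 lipid droplet genes were higher. Of 22 lipoprotein genes, 5 were lower and 2 higher, with Apoa4 lower, at -1.46 ± 0.33 and Apoc3 by -0.62 ± 0.14, and 3 were lower without wild-type mouse 5 on Western diet or knockout mouse 3. The higher pair, Scarb1 and Sort1, at 0.46 and 0.54, numbered 0 without wild-type mouse 3 or 5 on Western diet and 1 without wild-type mouse 2 or 4 or any knockout mouse. Apob, the structural protein of very low-density lipoprotein, was not called at -1.17 ± 0.43, and 2 lipoprotein genes were lower with median scaling or normexp correction. Of 19 glucose genes, 4 were lower, with Pfkfb1, which sets glycolytic flux, lower, at -1.66 ± 0.27, Ppargc1a by -1.34 ± 0.29 and Gys2, liver glycogen synthase, by -1.05 ± 0.22. With only knockout mice 4 and 5, 2 fatty acid oxidation genes were lower, as were 3 lipid droplet, 2 lipoprotein and 1 glucose gene, and Cpt1a, Mogat1, Apoc3, Scarb1, Sort1, Ppargc1a and Gys2 were not called. With only the 2 groups fitted, neither Acot1 nor Crat was called and 5 fatty acid oxidation genes were lower, and 3 lipoprotein genes were lower and none higher. On the shared slides alone Cpt1a, Apoc3, Scarb1 and Sort1 were not called, and 3 fatty acid oxidation, 3 lipid droplet and 2 lipoprotein genes were lower. Lipid droplet genes numbered 6 higher with slide as a block, and 1 lower with normexp correction, when 2 glucose genes were lower and Mogat1, Lipe, Scarb1, Sort1 and Gys2 lost their calls. With median scaling Cpt1a, Apoc3 and Scarb1 were not called.

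**Figure D4:**
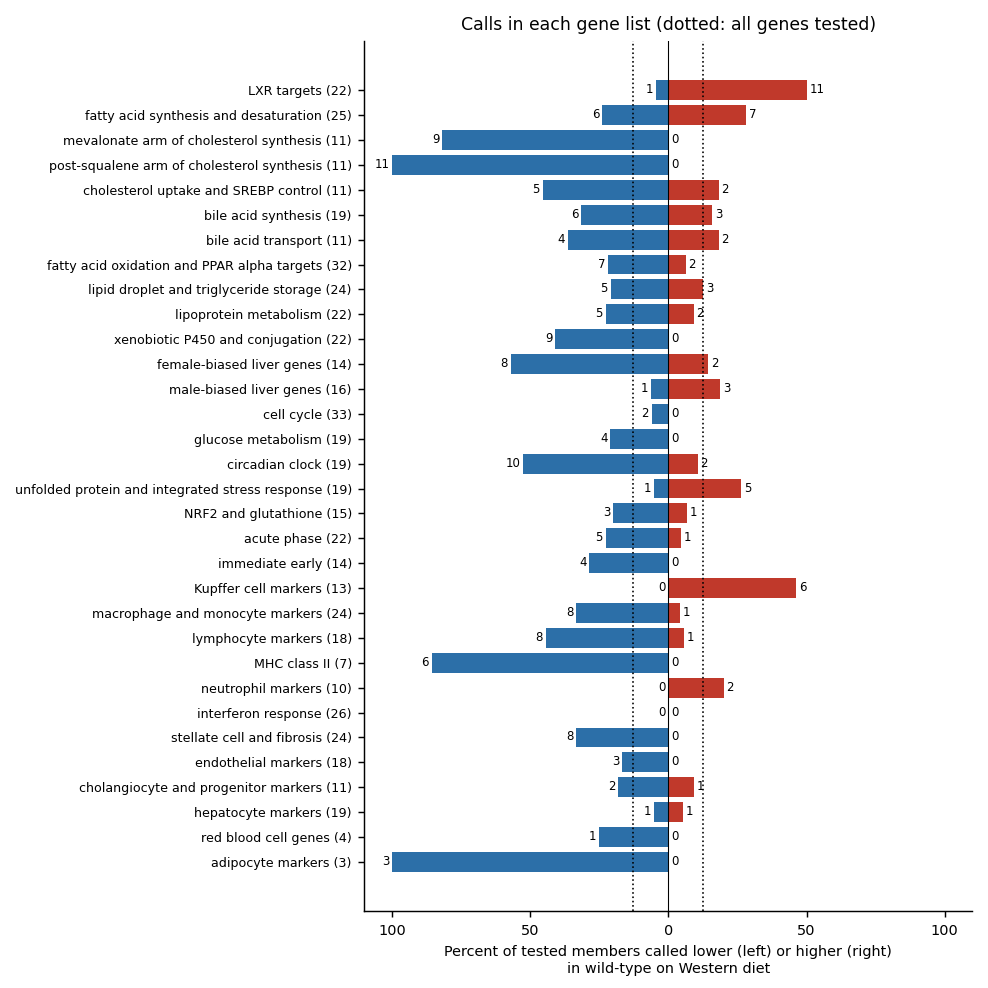
Share of tested members (x axis, percent) called lower (blue, left) or higher (red, right) in Western-fed wild-type mice for 32 gene lists, with counts at the bar ends and the number tested in brackets. Dotted lines give the shares over all genes, 13% lower and 12.4% higher; both cholesterol synthesis arms and MHC class II reach furthest left among lists of over 5 genes, and LXR targets and Kupffer cell markers furthest right.

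Several of the largest differences lay mainly in the genotype step and in genes outside the lists. On a mixed background without a statement on littermates, differing alleles and LXR loss cannot be told apart for these genes. Dct, a melanin enzyme, was at 0.21, 0.04, 0.13, 1.5 and 0.48 in the Western-fed wild-type mice and below background in all 5 knockout mice. It was at least 46.2-fold higher, and it also fell on Western diet (-2.91). Tmc5, a membrane protein of the TMC family, lay at 2.76, 2.41, 2.19, 2.48 and 1.9 in the Western-fed wild-type mice and at -4.14, -3.89, -4.22, -3.51 and -3.02 in the knockout mice, a difference of 6.1 ± 0.25 (adjusted p = 7.32e-12). Sugct, a mitochondrial CoA transferase, differed by 4.86 ± 0.27 (adjusted p = 8.06e-10), and the transcript TC1686295 by 5.61 ± 0.45. Pcolce2, an enhancer of collagen processing, and the glutamate receptor gene Grm8 differed by 4.73 ± 0.54 and 4.31 ± 0.34, or by 3.46 and 3.84 when each dim value was set to the lowest signal called above background on its array. Prdm16 and Serpine2 were below background in all knockout mice and at least 8.09-fold and 11.5-fold higher. All 4 lost their calls with normexp correction, as did BC019122 below. In the other direction Ifi202b was below background in all Western-fed wild-type mice and at 0.72, -0.9, -0.36, -0.68 and 0.6 in knockout mice, at least 33-fold lower, and Cd244a, a receptor of killer cells, differed by -5.66 ± 0.38 (adjusted p = 9.83e-09). BC019122 was at least 14-fold lower, and 1810046K07Rik differed by -5.44 ± 0.66 (-4.59 by that substitution), that one with a fall of -4.11 in the diet step. Both wild-type groups lay together for Tmc5, Sugct, Ifi202b and Cd244a, with diet steps of 0.56, -0.19, -0.36 and 0.39.

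Around the targeted loci the share of called genes was set beside 25.4% over all genes. Within 5 Mb of the Nr1h2 probe on chromosome 7 (mm8, the build of the array files), 36 of 154 genes were higher and 13 lower (31.8%), and 40 changed in the genotype step (26%, against 19.7% over all genes). Within 5 Mb of the Nr1h3 probe on chromosome 2, 5 of 96 were higher and 9 lower (14.6%). Near Nr1h2 lay the kallikrein genes Klk1, Klk1b4 and Klk1b21, near-identical copies, higher by 3.0 ± 0.42, 2.81 ± 0.26 and 2.53 ± 0.5. The clock gene Dbp, described below, also lay there and was lower, at -3.23, a call lost in 15 of 38 alternatives. Near Nr1h3 lay Spi1, a myeloid transcription factor gene, at least 1.26-fold lower, and Mybpc3, lower, at -1.14 ± 0.37. In mice of a mixed background, alleles of a targeted chromosome and the deletion itself cannot be told apart here. Mybpc3 lost its call on the shared slides alone, with only knockout mice 4 and 5, and without wild-type mouse 1 or 4 on Western diet or knockout mouse 1, 3 or 5. The calls of Klk1, Klk1b21, Mybpc3 and Spi1 were lost with normexp correction, and that of Spi1 with only knockout mice 4 and 5 and in the deposited log2 values.

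A cluster of imprinted genes on chromosome 12 was lower in the Western-fed wild-type mice. Meg3, a long non-coding RNA of the maternal chromosome, probed at chr12:110019275-110019334 (mm8), lay at -2.16, -1.28, -1.99, -1.23 and -2.06 in the Western-fed wild-type mice and at 5.12, 5.38, 5.05, 4.64 and 4.63 in the knockout mice. The groups lay far apart, wild-type mice on normal diet lay between at 2.11, 2.08, 2.33, 1.04 and 1.23, and the difference was -6.71 ± 0.31 (adjusted p = 4.08e-11). It rose by 3.21 with LXR loss and fell by 3.5 on Western diet. AI850416, probed at chr12:110010495-110010554, and Mirg, a microRNA host RNA of the same cluster, were below background in all Western-fed wild-type mice and at least 26-fold and 13.2-fold lower. Rian and Dlk1 were looked up after these values were seen. Rian was at least 6.49-fold lower, and Dlk1, well above background in 1 of 5 Western-fed mice, differed by -3.75 ± 0.63, or by -2.57 when each dim value was set to the lowest signal called above background, while Dio3 at the far end of the cluster was not called (0.48 ± 0.48). In Western-fed mice Rian was not well above background, so its fall on the diet could not be measured, and the calls of Mirg, Rian and Dlk1 were lost with normexp correction.

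Not all changes by LXR loss and by the diet opposed each other. In all, 211 genes rose in both steps, of which 171 were not called in the comparison, and 72 fell in both, of which 61 were not called. Gsta2, a glutathione transferase, lay at 4.42, 5.35, 3.27, 3.32 and 2.56 in the Western-fed wild-type mice and at 3.9, 4.83, 3.42, 4.1 and 3.44 in the knockout mice, against 0.01, 0.5, 0.97, 1.4 and 1.01 in wild-type mice on normal diet. The groups compared overlapped throughout while both lay above the third, and the difference was -0.15 ± 0.42 (adjusted p = 0.845). Ifi27l2b behaved alike, with steps of 3.37 and 3.5 and a difference of 0.13 ± 0.54, as did Cib3, with 3.58, 3.18 and -0.4 ± 0.66. In the other direction Nxpe2 lay at -0.98 to 0.65 and -0.33 to -0.12, both below 1.64 to 2.03, and differed by 0.31 ± 0.24. E2f7, a repressor of cell cycle genes, and Wif1, an inhibitor of Wnt signals, fell in both steps and differed by -0.41 ± 0.39 and 0.21 ± 0.38. Eps8l1 was below background in all knockout mice and in 4 of 5 Western-fed mice, so no difference is given.

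Cell cycle genes were the clearest list of this kind. Of 33 tested, 29 rose in the genotype step and 16 in the diet step, while 2 were lower in the comparison and none higher, with a median of -0.31. Over all genes 1988 of 17547 rose in the genotype step and 571 of 17543 in the diet step. Cdk1, the kinase that drives mitosis, lay at -1.99, -2.63, -4.07, -2.7 and -3.02 in the Western-fed wild-type mice and at -2.89, -4.64, -3.29, -2.71 and -1.0 in the knockout mice, against -5.98, -5.81, -4.99, -6.55 and -5.79 in wild-type mice on normal diet, where it was below background on all 5 arrays. The 2 groups overlapped fully and the difference was 0.02 ± 0.49 (adjusted p = 0.981). The 2 lower members were Rrm2, a subunit of ribonucleotide reductase (-1.09 ± 0.26), and the proliferation marker Mki67 (-1.2 ± 0.4), the latter lost in 12 of 38 alternatives. At an unadjusted p under 0.05, 8 were lower and none higher. Without wild-type mouse 3 or 5 on Western diet or knockout mouse 1, 3 or 5, 1 member was lower, and without wild-type mouse 2 or knockout mouse 2, 7 and 4 were. With normexp correction none was lower.

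Clock genes were lower, but the knockout mice were not alike. Of 19 tested, 10 were lower and 2 higher, with a median of -0.76, and none changed in the diet step by limma, with 2 at an unadjusted p under 0.05. Dbp, an output gene of the clock, lay at -0.12, 0.01, -0.27, 3.01 and 2.49 in the Western-fed wild-type mice and at 6.12, 6.36, 6.37, 0.35 and 2.03 in the knockout mice. Knockout mice 1, 2 and 3 stood near 6 while mice 4 and 5 lay in the wild-type range, and Arntl, which peaks at the opposite time, was at -2.88, -2.91, -2.76, 1.74 and 0.9 in the same mice and at 0.93 to 1.44 in the Western-fed mice. The differences of -3.23 ± 1.1 and 2.39 ± 0.75 were -0.17 and -0.11 with only knockout mice 4 and 5, and both calls were also lost without knockout mouse 1, 2 or 3, when no clock gene was higher, or without wild-type mouse 2 on Western diet. The call of Dbp was lost without wild-type mouse 1 or 3 as well. Per1, in contrast, lay at -0.43, 0.09, -0.9, 0.43 and 0.17 in the Western-fed wild-type mice and at 1.36, 1.88, 2.26, 2.28 and 2.26 in the knockout mice, without overlap (-2.14 ± 0.36, adjusted p = 2.69e-04), and Usp2 differed by -3.19 ± 0.41 (adjusted p = 1.58e-05). Ciart was below background in all Western-fed mice and at least 9.45-fold lower. With only knockout mice 4 and 5, 4 clock genes were lower and 2 higher, with median scaling 5 and 3, and with normexp correction 3 and none. The hour of killing is not in the labels, and its part in these values was not tested. On the shared slides alone or with only the 2 groups fitted, 7 were lower and none higher, and Dbp and Arntl were not called. Ciart lost its call with normexp correction.

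Stress genes split. Asns, induced by amino acid shortage, lay at 3.25, 2.62, 1.14, 1.54 and 1.29 in the Western-fed wild-type mice and at 5.7, 4.85, 5.75, 5.41 and 5.96 in the knockout mice, without overlap (-3.57 ± 0.37, adjusted p = 1.68e-06), and it rose in the genotype step and fell in the diet step. Of 19 genes of the unfolded protein and integrated stress responses, 5 were higher and 1 lower (Asns), with 1 higher without knockout mouse 1 and 2 without knockout mouse 2 or wild-type mouse 4 on Western diet. Chac1 and Sdf2l1 were higher by 1.67 ± 0.49 and 1.35 ± 0.4, and both calls were lost without knockout mouse 1, that of Sdf2l1 also without knockout mouse 2 or wild-type mouse 4. Of 15 NRF2 and glutathione genes, 1 was higher and 3 lower. The metallothioneins Mt1 and Mt2, which bind zinc, were lower, at -3.29 ± 0.82 and -3.97 ± 0.96, near-identical genes whose calls were lost on the shared slides alone and with only knockout mice 4 and 5. Of 22 acute phase genes, 5 were lower and 1 higher, with Apcs, serum amyloid P, lower, at -2.31 ± 0.38 (adjusted p = 2.05e-04). Without wild-type mouse 2 on Western diet or knockout mouse 2 or 5, 3 acute phase genes were lower. Lcn2 was lower, at -3.15 ± 1.1, a call lost in 20 of 38 alternatives, among them those without wild-type mouse 2, 3, 4 or 5 or knockout mouse 1, 2 or 5. Of 14 immediate early genes, 4 were lower, among them Btg2 (-2.07 ± 0.28, adjusted p = 3.80e-05) and Junb (-1.33 ± 0.22, adjusted p = 2.95e-04), neither overlapping. The antioxidant enzyme Nqo1 was lower, at -0.95 ± 0.27, after a rise of 1.65 in the genotype step, and Gclc, the first enzyme of glutathione synthesis, was higher by 0.8 ± 0.22. With only knockout mice 4 and 5, no stress response gene was higher and their median was -0.11 against 0.38 with all mice, no NRF2 gene was called, 3 acute phase and 2 immediate early genes were lower, and Chac1, Sdf2l1, Lcn2, Nqo1 and Gclc were not called. On the shared slides alone 2 stress response genes were higher, no NRF2 gene was called, 3 acute phase and 2 immediate early genes were lower, and Sdf2l1, Nqo1 and Gclc were not called. With normexp correction 2 stress response genes were higher, 1 acute phase and 2 immediate early genes were lower, and Chac1, Mt1 and Gclc were not called. With median scaling 2 acute phase genes were lower and Nqo1 was not called, and with only the 2 groups fitted 2 stress response genes were higher and Sdf2l1 was not called.

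Several markers of resident liver macrophages, the Kupffer cells, were higher. Of 13 tested, 6 were higher and none lower, with a median of 0.71. At an unadjusted p under 0.05 in limma's test, 7 were higher and 1 lower. The median level of the list overlapped, at -0.09 to 2.2 in Western-fed wild-type mice and -1.95 to 1.41 in knockout mice. Among genes above background on all 20 arrays the median difference was 0.08. Clec4f, a Kupffer cell lectin, lay at 4.76, 4.21, 3.13, 3.66 and 2.76 in the Western-fed wild-type mice and at -0.27, -4.25, -0.13, 0.46 and 0.89 in the knockout mice. Knockout mouse 2, at -4.25, was far below the other 4, the groups did not overlap with or without it, and the difference was 4.37 ± 0.84 (adjusted p = 9.25e-04). Cd163, the haemoglobin scavenger receptor, lay at -0.56, -0.01, -0.39, 0.02 and -0.59 in the Western-fed wild-type mice and at -5.49, -7.2, -5.42, -3.58 and -4.62 in the knockout mice, with 2 of 5 knockout arrays well above background, and differed by 4.96 ± 0.51, or 4.34 by the same substitution. Vsig4, Folr2 and Timd4 were higher by 3.19 ± 0.83, 3.03 ± 0.57 and 2.49 ± 0.69, each lowest in knockout mouse 2. Without that mouse 6 members were higher and 1 lower, with a median of 0.39. The complement genes C1qa, C1qb and C1qc, also expressed by other macrophages, were not called, at 0.03, -0.37 and 0.14, nor was Marco, at 0.71 ± 0.73. The call of Vsig4 was lost with only knockout mice 4 and 5, that of Timd4 with normexp correction, and both with only the 2 groups fitted, when 4 members were higher. The remaining member was Cd5l, an LXR target described above.

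**Figure D5:**
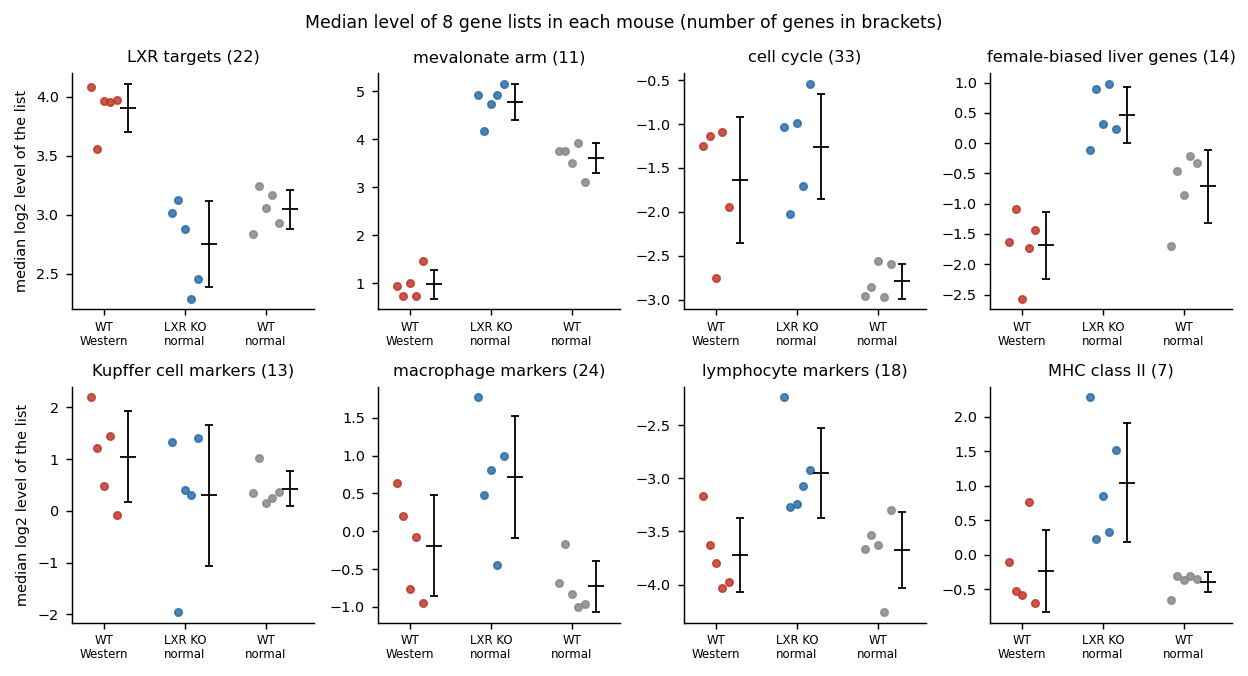
Median log2 level (y axis) of 8 gene lists in every mouse of the 2 groups compared and of wild-type mice on normal diet, with mean ± SD of 5 mice and the number of genes in brackets. LXR targets, the mevalonate arm and female-biased genes separate the compared groups, whereas the cell cycle list overlaps between them, with Western-fed mouse 3 (-2.76) in the range of wild-type on normal diet (-2.97 to -2.55) and the other mice above it, and knockout mouse 2 lies lowest for Kupffer cell markers, at -1.95.

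Markers of other macrophages and of monocytes were lower. Of 24 macrophage and monocyte markers, 8 were lower and 1 higher, with a median of -0.67, and 13 rose in the genotype step. Itgax, an integrin of dendritic cells and recruited macrophages, lay at -3.04, -4.39, -4.15, -3.27 and -4.73 in the Western-fed wild-type mice and at 0.37, 0.14, 0.2, -2.57 and -0.09 in the knockout mice. In knockout mice, 4 values lay between -0.09 and 0.37 and mouse 4 lay at -2.57, all above the Western-fed mice, for a difference of -3.53 ± 0.47 (adjusted p = 2.67e-05). Fcer1g, a signalling chain of Fc receptors, differed by -2.08 ± 0.27 (adjusted p = 2.03e-05) and Itgam, below background in all Western-fed mice, was at least 2.38-fold lower. Gpnmb, a marker of lipid-laden macrophages, was lower, at -2.63 ± 0.87 (-1.9 with dim values set to the lowest signal called above background), a call lost in 13 of 37 alternatives, among them those without wild-type mouse 2, 3 or 5 on Western diet or knockout mouse 1 or 5. The 1 higher member was the tetraspanin Cd9 (1.39 ± 0.18). Broad macrophage genes were not called, with Adgre1 at -0.22 ± 0.38, Cd68 at -0.81 ± 0.35 and Lyz2 at 0.04 ± 0.44, and 3 of the list were lower with normexp correction. With only knockout mice 4 and 5 also 3 were lower, and under both settings Itgam was not called.

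Lymphocyte markers were lower in 8 of 18 and higher in 1, with a median of -1.05. Cd79b, a chain of the B cell receptor, differed by -2.1 ± 0.31 (adjusted p = 8.60e-05), and Gzma, a granzyme of killer cells, was at least 3.13-fold lower. Of 7 MHC class II genes, 6 were lower, with a median of -1.36, and H2-Aa and H2-Eb1 differed by -1.53 ± 0.42 and -1.5 ± 0.41. Knockout mouse 1 was the highest of its group for both, at 2.12 and 3.43, and no MHC class II gene was called with normexp correction or was free of overlap between the groups. Ltb, Cd52 and Lck, genes of T and B cells, were lower, at -1.8, -1.57 and -1.46, while Cd4 and Cd3e were not called, at 0.26 and 0.2. Without wild-type mouse 3 or 5 on Western diet or knockout mouse 1, 4 lymphocyte markers were lower, as with median scaling, and with normexp correction 1 was. With median scaling 3 MHC class II genes were lower. In the diet step no lymphocyte or MHC class II gene changed by limma, with 4 and 0 at an unadjusted p under 0.05. With only the 2 groups fitted, no MHC class II gene was called and 4 lymphocyte markers were lower, with Cd52 and Lck not called. Lymphocyte markers numbered 3 lower on the shared slides alone and 2 with only knockout mice 4 and 5, and Ltb, Cd52 and Lck were not called in either. Without wild-type mouse 3 or 5 or knockout mouse 1, Cd52 and Lck were not called. With median scaling the same pair was not called, and Gzma, Ltb, Cd52 and Lck lost their calls with normexp correction.

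The list counts that follow stand beside 12.4% higher and 13% lower over all genes. Of 10 neutrophil markers, 2 were higher (Ngp and Camp), and knockout mice had neither above background. Ngp was above background in 3 Western-fed mice, at least 1.51-fold higher, and Camp in 3, at least 1.85-fold, and S100a8 and Mpo were not called, at 1.43 ± 0.61 and 1.27 ± 0.64. Both neutrophil calls were lost with normexp correction and with only knockout mice 4 and 5, and that of Camp with only the 2 groups fitted. None of 26 interferon response genes was called by limma, with 2 at an unadjusted p under 0.05, and leaving out wild-type mouse 3 or 1 on Western diet called 2 as higher or 2 as lower. Oas1a, Irf7 and Ifi44 spread widely, with differences of 1.52 ± 0.81, 1.38 ± 0.74 and 1.28 ± 1.08. Of 24 stellate cell and fibrosis genes, 8 were lower, with a median of -0.46, among them Vim (-1.05 ± 0.22), Lum (-0.88 ± 0.26) and Tgfb1 (-0.86 ± 0.22), and 3 were lower without knockout mouse 1, when Lum was not called, 5 without wild-type mouse 3 or 4 on Western diet and 4 without wild-type mouse 5. With median scaling 1 was lower and with normexp correction none, with slide as a block 5, on the shared slides alone 4 and with only knockout mice 4 and 5, 2. Lum lost its call under each of these, Tgfb1 with median scaling, normexp correction or only knockout mice 4 and 5, and Vim with normexp correction. The collagen genes Col1a1 and Col3a1 were not called, at -0.16 and -0.12. Of 18 endothelial markers, 3 were lower, with Vwf (-1.37 ± 0.25) and Pecam1 (-1.2 ± 0.25), a share near the 13% lower over all genes. Of 11 cholangiocyte markers, Cftr and Cd24a were lower, and of 4 red blood cell genes Klf1 was lower. All 3 adipocyte markers tested were lower, with Cfd, a complement protease of fat cells, at -3.91 ± 0.96, Pparg at -1.96 ± 0.24 and Fabp4 at -1.38 ± 0.19, while the defining adipocyte genes Adipoq, Lep, Retn and Plin1 did not pass the filter on dim signal. With normexp correction or with only knockout mice 4 and 5, 1 endothelial marker was lower and Pecam1, Cftr, Cd24a, Klf1 and Cfd were not called, the last of which differed by -2.51 with dim values set to the lowest signal called above background. Cftr and Cd24a were also lost with median scaling and in the deposited log2 values. With dim values set to the lowest signal called above background, Cftr differed by only -0.11. The part of these cell type lists in the single-gene differences was not tested.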

How the data were processed

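RNA of liver fragments from 20 mice in 4 groups of 5 was measured on 1-colour Agilent mouse arrays, and the 5 wild-type mice on Western diet were compared with the 5 LXR knockout mice on normal diet. The deposited intensity values were produced with Feature Extraction 9.5.3.1, per the file headers, which subtracted the background, detrended each array and gave dim spots a surrogate value; the design is annotated on mm8. The authors also deposited a table of log2 values, whose steps are not given in the sources used here beyond the names Agilent Feature Extraction 9.5 and limma in the submitters' processing notes; the columns have medians of 7.73 to 7.78 and correlate at 0.998 or more with log2 median signals, so that scale and lack of centring are known and the normalization is not. That table was used as an alternative only.

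From the processed signal, 1639 control spots and 105 to 270 outlier spots per array were left out, spots of a probe were averaged, and log2 values were scaled to the 75th percentile of their array. The probe with the highest mean stood for a gene, and the filter kept genes whose signal cleared background on 4 or 5 arrays in any of the 4 groups (17552 of 27573). Of 41174 probes, 23374 were named by RefSeq accession, 6733 by symbol, 2919 by synonym, and 8148 kept the name in the file. limma 3.58.1 in R 4.3.3 fitted all 4 group means (16 residual and 2.23 prior degrees of freedom), and p-values were adjusted by Benjamini-Hochberg over all genes. All adjusted p-values are from this test. A gene below background on all arrays of a group has a lower bound of its fold ("at least"), from the lowest signal called above background on each array. The number of arrays limits precision. Data were simulated for 17006 genes with independent normal noise, without shared array or mouse effects, and with 50 genes changed by each size. Of genes changed by 0.5, 1, 2 and 4 log2 units, 22%, 56%, 86% and 100% were called, and 9 of 16806 unchanged genes. Many more genes were called in the real data, which alters the adjusted threshold, so these shares need not hold there.

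Named genes were the targeted genes, the 15 highest and 15 lowest non-overlapping called genes, 12 set oppositely in each direction by the size of the smaller step, 5 in each direction changed alike in both steps, all members of the sterol and fatty acid synthesis lists, the 6 largest differences and the defining markers of the 32 lists, and 5 genes near each targeted locus; others were named after their values were seen. Some genes that this rule picks are not reported here by name, and counts over lists include them. The members and lists were chosen with earlier results of these data known. Of the alternatives, restricting the knockout mice to 4 and 5 was chosen after seeing the data. Replicate numbers were not taken as pairs, and among same-numbered mice only those of number 1 correlated best with each other. Promoters came from RefSeq on GRCm38.p6, and figures were drawn with matplotlib 3.10.9.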

Additional observations from a re-analysis of the deposited data

Results flagged for a closer look

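In 25 of 465 groups of 5 mice examined (5.38%), 1 mouse lay far from the other 4 by Dixon's gap test; chance alone gives about 1 in 20. All values are log2 levels. Knockout mouse 2 accounts for 5 of them. It was high for Cyp4a14, a PPAR alpha target, at 7.40 against 0.80 to 1.79, and for Lpcat3, at 2.92 against 2.29 to 2.45. It was low for the Kupffer cell genes Clec4f, at -4.25 against -0.27 to 0.89, and Folr2, at -5.53 against -2.77 to -1.93, and for Msmo1, at 6.56 against 6.97 to 7.14.

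Knockout mouse 3 was high for Srebf1, at 4.77 against 4.48 to 4.56, and low for Mylip, at -1.47 against -0.74 to -0.46, and Pmvk, at 4.75 against 5.14 to 5.29. Knockout mouse 4 was low for Itgax, at -2.57 against -0.09 to 0.37, and Cd244a, at -1.05 against 0.35 to 0.86, and high for Gclc, at 5.26 against 4.24 to 4.53, and the T cell gene Cd3e, at 0.53 against -2.26 to -1.51. Knockout mouse 5 was high for Apcs, at 5.19 against 4.44 to 4.53.

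Among wild-type mice on Western diet, mouse 2 was low for Abca1, at 3.56 against 3.95 to 4.08, and Rnf145, at 0.78 against 1.38 to 1.60, and high for Akr1d1, at -0.12 against -1.09 to -0.86, and BC019122, at -5.65 against -7.40 to -7.03, all below background. Mouse 3 was low for the lipid synthesis genes Thrsp, at 2.46 against 3.88 to 4.27, Acly, at 1.10 against 1.65 to 1.88, and Mvk, at -1.13 against -0.60 to -0.47. Mouse 4 was high for Cyp8b1, at -3.85 against -7.12 to -6.41, for Abcb11, at 8.06 against 7.77 to 7.84, and for Ebp, at 7.36 against 6.61 to 6.82, and low for Fabp5, at -6.82 against -4.58 to -4.01. Mouse 5 was high for Tm7sf2, at 5.04 against 4.23 to 4.41.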

How the results depend on the processing

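Of 184 named genes called, 87 (47.3%) were called in the same direction under all alternatives run, 97 lost their call under at least 1, and Arntl reversed, to -0.107 with only knockout mice 4 and 5. Leaving out 1 array gave 1675 to 2382 higher, 1860 to 2445 lower, 23 to 56 genes lowered by LXR loss and raised by the diet, and 46 to 68 of the converse. Under the other settings, 15 of 18 kept the higher count and 15 of 18 the lower count within 1.5 times. Exceptions were normexp correction (296 higher, 399 lower), only slides with both groups (1278 higher, fewer arrays), only knockout mice 4 and 5 (746 and 922, fewer arrays) and median scaling (1237 lower). Genes set oppositely, 42 and 65, numbered 20 and 29 with median scaling, 1 and 7 with normexp, 79 and 112 with array weights, 6 and 22 on slides with both groups and 23 and 27 with only knockout mice 4 and 5. The first set numbered 27 with the mean over probes, and the second 43 without a filter on dim probes. Apart from the settings with fewer arrays, the cause was not tested. Near Nr1h3, 24.1% of genes were called in a 2 Mb window against 14.6% in 5 Mb.

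With replicate number as a block, 2106 genes were higher and 2243 lower and 41 and 58 were set oppositely. Same-numbered mice of the compared groups deviated together only for number 1, at a correlation of 0.445, and those 2 mice shared a slide. For the other numbers the correlations were -0.398 to 0.039. Of the named genes called, Abcg5, Elovl5, Fabp5, Acot1, Crat, Mki67 and Dbp lost their call with this block. Small list medians, such as -0.08 for fatty acid synthesis, turned positive with median scaling (0.08). Dim genes limit the folds: 238 lower and 56 higher called genes were below background in 1 whole group, and their folds are bounds.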
